A study of Mus musculus with 12 samples.

Results

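The genes described here encode the contractile apparatus of smooth muscle: Myh11, Acta2, Actg2, Myl9, Mylk, Tagln, Cnn1, Tpm1, Tpm2 and Des. They were taken as every probe set whose platform annotation names only one of these genes, which gave 11 probe sets for 10 genes, among 12422 probe sets in all and 8251 genes named by a probe set of their own. They were measured in perigonadal adipose tissue of female mice aged 6 months and fed ad libitum, 1 mouse per Affymetrix array. The 3 mice labelled adipose-GLUT4-Tg (overexpressors, FVB strain) carried Glut4, the insulin-responsive glucose transporter, as a transgene driven by the aP2 promoter, and their 3 controls were FVB littermates. The 3 adipose-Glut4-/- mice (knockouts) were set against 3 aP2-Cre transgenic mice, all 6 on a C57B6/FVB/SV129 mix. The aP2 promoter is that of the fatty acid binding protein of adipocytes, and it is known to be active in macrophages too. The genotype field gives the controls the value of their mutants, so the groups come from the sample titles.

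In smooth muscle, the heavy chain Myh11 forms thick filaments that pull on thin filaments of the actins Acta2 and Actg2. Contraction starts when calcium and calmodulin activate the kinase Mylk, which phosphorylates the regulatory light chain encoded by Myl9. Tropomyosins, calponin (Cnn1) and transgelin (Tagln) bind the actin filament, and desmin (Des) is the intermediate filament that ties the apparatus together. In fat these genes mark the muscle of arterioles and veins, and Acta2, Tagln and Des can also be made by pericytes and by activated fibroblasts. Because the whole tissue was measured, fewer cells of a type and less RNA per cell cannot be told apart.

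Many smooth muscle genes are known targets of serum response factor and its partner myocardin, which act at the CArG box, a short element with an A and T core between CC and GG. The 250 bases before the gene start are shown for Acta2 and Myl9, because these were the only ones of the 7 members with a promoter in the RefSeq table (build GRCm38.p6) that held such an element. Capitals mark matches with at most 1 base other than A or T in the core of 6, read on the strand of the gene, on which any match also counts for the other strand.
Acta2 (chr19:34255374-34255623, minus strand): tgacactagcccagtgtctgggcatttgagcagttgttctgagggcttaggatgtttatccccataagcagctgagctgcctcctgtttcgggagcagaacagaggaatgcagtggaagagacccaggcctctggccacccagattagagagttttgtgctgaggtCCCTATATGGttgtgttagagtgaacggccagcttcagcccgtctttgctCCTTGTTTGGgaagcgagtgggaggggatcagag
Myl9 (chr2:156775214-156775463, plus strand): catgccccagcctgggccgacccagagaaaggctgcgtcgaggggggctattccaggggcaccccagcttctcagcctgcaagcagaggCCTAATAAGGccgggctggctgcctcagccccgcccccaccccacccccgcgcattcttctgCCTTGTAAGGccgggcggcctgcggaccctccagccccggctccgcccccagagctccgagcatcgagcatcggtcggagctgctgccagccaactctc
In Myl9 the first match, 161 bases before the start, has a core of A and T throughout, and the other, 99 bases before it, has 1 mismatch, as have both matches of Acta2, at 84 and 34 bases. Of all 32851 promoters in the table, 1.47% held a match without mismatch (482) and 8.59% held one with at most 1 mismatch (2823). The windows of Cnn1, Des, Mylk, Tpm1 and Tpm2 held no match in these letters. A match describes the sequence and says nothing of binding. Srf and Myocd themselves were not named by a probe set of their own.

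Values are array intensities on a linear scale, and each mutant was read only against its own control, because the smallest value differed between the lines (21.9 on the overexpressor and 22.27 on the knockout arrays) and their scaling is not stated. A log2 fold change is mutant minus control on the log2(intensity + 36.92) scale, which understates changes of dim probe sets. A change was called where limma's Benjamini-Hochberg adjusted p over 7454 tested probe sets was under 0.05. Array medians ran from 185.8 to 219.4, the dimmest arrays being knockout control 3 (185.8) and overexpressor 1 (188.1). The targeted gene, Slc2a4, read 625, 1110 and 1042 in overexpressors against 639, 583 and 1212 in their controls, and 378, 365 and 363 in knockouts against 416, 514 and 614 in theirs, and neither difference passed the test. The labels do not say which exons were deleted or which species the transgene came from, so this probe set checks neither set of labels. Of the 10 smooth muscle genes, 9 were bright enough to test, and Tpm2 was not.

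The first comparison asked what more Glut4 did to fat. Every one of the 10 smooth muscle genes had a lower mean in overexpressor fat than in control fat, with a median log2 fold change of -0.34 against -0.06 over all 8251 genes, but none passed the test. Of 9 tested genes, 0 were called by limma, while 0.0805% of all probe sets were called (6 of 7454). Without adjustment 4 of the 9 had a p under 0.05, all lower (Myh11, Tagln, Des and Myl9), where 3.53% of all probe sets did. Lower values were common in this line, with 70.3% of tested probe sets below their controls.

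**Figure D1:**
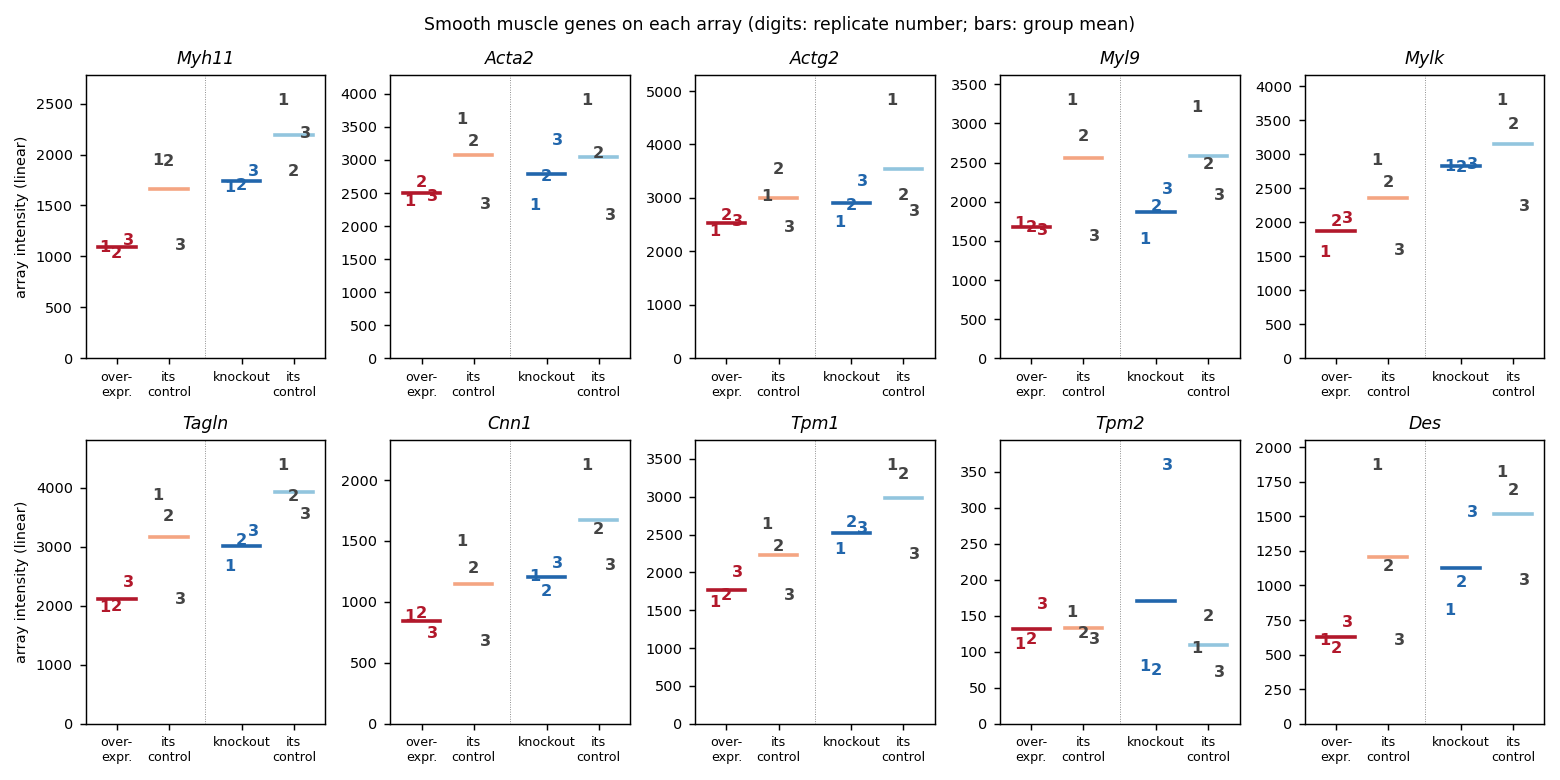
Intensity (linear axis from 0) of each smooth muscle gene on all 12 arrays, with digits for the replicate number and bars for the group mean of 3 arrays; the dotted line parts the lines, between which no level is compared. Overexpressor control 3 lies at the level of the overexpressors in every panel, and knockout 3 stands far above the other arrays for Tpm2.

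The motor and thin filament genes came first. Myh11, the smooth muscle myosin heavy chain, read 1087, 1026 and 1154 in overexpressors against 1945, 1933 and 1109 in controls. Control 3 thus lay among the overexpressors, and the other controls lay well above all of them. The log2 fold change was -0.55 (SE 0.19, 95% interval -0.97 to -0.13, limma adjusted p = 0.885). Acta2, the vascular smooth muscle actin, read 2368, 2664 and 2449 in overexpressors against 3612, 3274 and 2326 in controls. Here control 3 was below all overexpressors, and the log2 fold change was -0.27 (SE 0.22, limma adjusted p = 0.913). Actg2, the enteric smooth muscle actin, read 2366, 2674 and 2567 in overexpressors against 3021, 3533 and 2455 in controls (-0.23, SE 0.20). Its identifier ends in _f_at, the maker's mark for probes that can match several members of a gene family, so Actg2 and other actins cannot be told apart by it.

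Myl9, the regulatory light chain, was even within the overexpressors, at 1724, 1666 and 1629.9, against 3293, 2831 and 1561 in controls. The lowest control again fell below every overexpressor (log2 fold change -0.54, SE 0.24, 95% interval -1.06 to -0.01). Mylk, the myosin light chain kinase, read 1561, 2004 and 2054 in overexpressors against 2911, 2587 and 1591 in controls (-0.30, SE 0.23). Control 3 lay just above overexpressor 1 and below the other overexpressors.

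Of the proteins that bind the thin filament, Tagln read 1973, 1983 and 2384 in overexpressors against 3874, 3517 and 2107 in controls. Its log2 fold change was -0.53 (SE 0.20, 95% interval -0.96 to -0.11, limma adjusted p = 0.901), and control 3 lay inside the range of the overexpressors. Cnn1, basic calponin, which slows the actin-activated myosin motor, read 877, 902 and 744 in overexpressors against 1499, 1278 and 675 in controls (-0.37, SE 0.25). Tpm1, a tropomyosin also made in striated muscle, read 1606, 1695 and 2003 in overexpressors against 2636, 2345 and 1698 in controls (-0.31, SE 0.19). In both genes the upper controls cleared all overexpressors and control 3 did not. Tpm2, the beta tropomyosin, was dim, at 109.96, 117 and 166 in overexpressors against 155, 125 and 117 in controls (-0.02, not tested). Another probe set for Tpm2 was dimmer still, with 34.1 as its lowest and 58.2 as its highest intensity.

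Des had the largest difference of the 10 genes and the widest spread. It read 602, 545 and 733 in overexpressors against 1867, 1138 and 605 in controls, a log2 fold change of -0.77 (SE 0.35, 95% interval -1.53 to -0.02, limma adjusted p = 0.913). Its controls alone spanned 3.09-fold, while the overexpressors spanned 1.34-fold.

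The control mice of this line differed widely among themselves. Overexpressor control 3 was the lowest control in 10 of 10 genes, was never above all overexpressors, and was below all of them in 3 genes. Controls 1 and 2 were each above all overexpressors in 9 of 10 genes. Summed over the genes, the intensities were 14273, 15276 and 15886 in overexpressors against 24812, 22561 and 14245 in controls. No tested gene separated the groups completely, where 6.48% of all tested probe sets did so with lower values in overexpressors. Without overexpressor control 3 the median log2 fold change was -0.63, and Myh11 (-0.81) and Tagln (-0.80) were called (limma adjusted p = 0.0453 for each), at a background of 0.282% of probe sets called (21 of 7454). Control 3 was the lowest control in every gene, so its removal alone enlarges each difference, and these calls are no separate result. Without overexpressor control 1 the median was -0.20, and with quantile normalization it was -0.21, with no call in either.

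**Figure D2:**
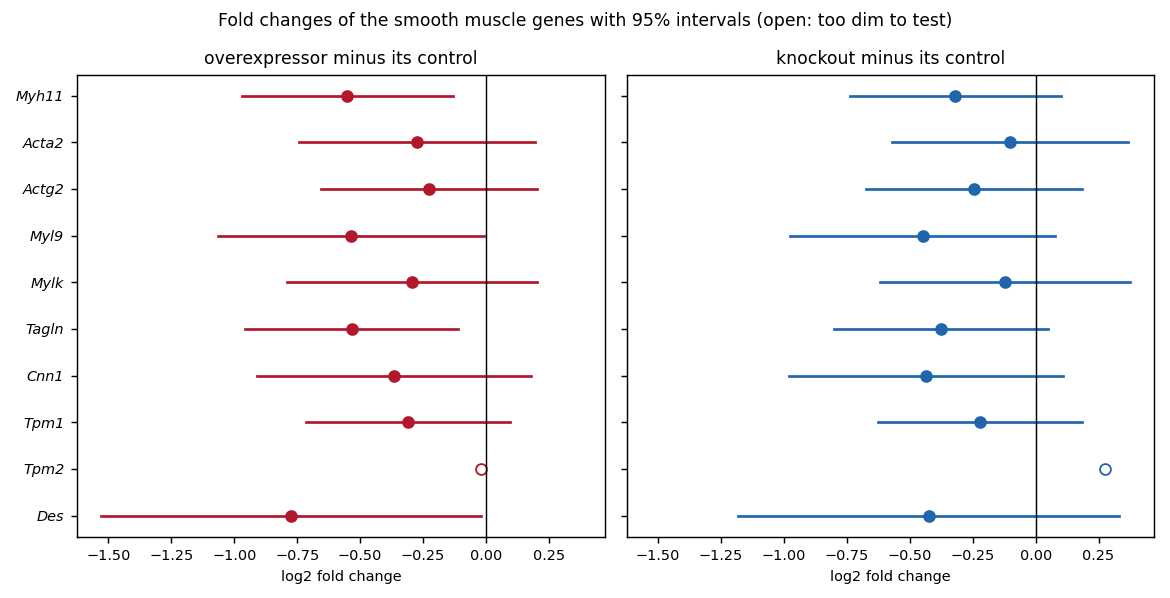
Log2 fold change (horizontal axis) of each smooth muscle gene in the overexpressor and in the knockout, each minus its own control, with limma's 95% intervals; open circles mark Tpm2, which was too dim to test. In the overexpressor the intervals of Myh11, Tagln, Des and Myl9 lie below 0 before adjustment, and in the knockout every interval holds 0.

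The knockout addressed the opposite question, that of fat lacking Glut4. In knockout fat 9 of the 10 genes again had a lower log2 mean than in aP2-Cre fat, with a median log2 fold change of -0.28 against 0.03 over all genes, and none passed the test. Of 9 tested genes 0 were called by limma (0.121% of all probe sets were), and 0 had an unadjusted p under 0.05, where 0.51% of probe sets did with lower values. In this line 37% of tested probe sets were lower than in controls, and the 9 tested genes all were. The changes of these 9 ran from -0.45 to -0.10, and their 95% intervals from -1.18 to 0.38 at the widest.

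Tagln was the gene whose groups did not overlap. It read 2669.6, 3109 and 3263 in knockouts against 4371, 3849.9 and 3546 in controls, so that the highest knockout stayed under the lowest control. That is 1 of 9 tested genes, where 1.89% of tested probe sets separated in that direction, and the log2 fold change of -0.38 (SE 0.20, 95% interval -0.80 to 0.05) had an adjusted p of 1 in limma. Myh11 read 1676, 1695 and 1838 in knockouts against 2531, 1836 and 2206 in controls (-0.32, SE 0.19). Only knockout 3 and control 2 overlapped there, by a margin of 1838 against 1836.

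Cnn1 read 1206, 1086 and 1312 in knockouts against 2119, 1592 and 1295 in controls (log2 fold change -0.44, SE 0.25). Myl9 read 1522, 1933 and 2161 in knockouts against 3196, 2472 and 2079 in controls (-0.45, SE 0.24). In both, knockout 3 alone lay above the lowest control, which was control 3. Des, at 819, 1023 and 1528 in knockouts against 1818, 1688 and 1037 in controls, followed the same pattern (-0.43, SE 0.35).

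The actins and the kinase differed less. Acta2 read 2314, 2749 and 3302 in knockouts against 3902, 3091 and 2155 in controls (log2 fold change -0.10, SE 0.22), with the groups fully intermixed. Actg2 read 2539.7, 2862 and 3314 in knockouts against 4825, 3042 and 2748 in controls (-0.25, SE 0.20), the difference resting on control 1. Mylk was nearly constant in knockouts, at 2825, 2805 and 2847, while its controls scattered around them at 3790.1, 3429 and 2233 (-0.12, SE 0.23). Tpm1 read 2304, 2660.1 and 2582 in knockouts against 3410.1, 3298 and 2239.9 in controls (-0.22, SE 0.19), again with control 3 below every knockout.

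Tpm2 was the member with a higher mean in knockouts. It read 79.0, 74.1 and 358 in knockouts against 105, 149 and 71.6 in controls, so that a single array carried the higher mean. The log2 fold change was 0.28 with that array and -0.32 without it, and neither was tested. Skeletal muscle genes were high on the same array. Their summed intensity was 16446 on knockout 3, against 5567 and 6718 on the other knockouts and 5878 to 9316 on the controls. Myh1, a fast skeletal myosin, read 95.3, 29.6 and 1199 in knockouts against 98.8, 434 and 68.9 in controls. The fast troponin gene Tnnt3 read 113, 35.4 and 1020 in knockouts against 68.6, 289 and 104 in controls. Tpm1, Tpm2 and Des are known to be made in skeletal muscle as well, and the part of such tissue in their values was not tested.

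Knockout 3 was the highest knockout in 9 of 10 genes, knockout control 1 the highest control in 9, and knockout control 3, the dimmest array of its line, the lowest control in 9. Summed intensities over the genes were 17953, 19996 and 22504 in knockouts against 30068, 24446 and 19611 in controls. Without knockout control 1 the median log2 fold change was -0.16, with Acta2 at 0.09 and Mylk at 0.03, and without knockout 3 it was -0.35. No call was made in either case.

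The difference between the overexpressor effect and the knockout effect was tested as well. Of the 9 tested genes 0 were called by limma, where 0.161% of all probe sets were, and 0 had an unadjusted p under 0.05, where 4.95% did. The differences ran from -0.35 (Des) to 0.07 (Cnn1), with a smallest adjusted p of 0.898 (Myh11), and their 95% intervals reached from -1.42 to 0.84. Lower values in both mutants were found for 9 of 9 tested genes, against 25.7% of tested probe sets. These genes varied together over the arrays, as given below, so they are not separate observations. The lines share no arrays.

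The 10 genes varied together over the arrays. After subtraction of each line's mean, 9 of them correlated at 0.81 to 0.96 with the mean of the other members over 12 arrays (Des 0.96, Myl9 0.94, Actg2 0.81), and Tpm2 at 0.27. All genes on an array share that array's overall brightness, so the values are given as a description. The tested genes outside the list most like its mean, ranked by Pearson r over the 12 arrays, were Atpif1 (0.975), Rpl10a (0.974), Npm1 (0.971), Rps3a1 (0.969) and Ptgis (0.965). Atpif1 encodes the inhibitory factor of the ATP synthase, Rpl10a and Rps3a1 ribosomal proteins, Npm1 nucleophosmin and Ptgis the prostacyclin synthase, known from vessel walls. Ptgis read 951, 869 and 950.5 in overexpressors against 1936, 1267 and 826 in controls, and 769, 945 and 1321 in knockouts against 1604, 1241 and 945 in controls. Its controls kept the order seen in the contractile genes, with control 1 highest and control 3 lowest in both lines. The controls of Atpif1, Rpl10a, Npm1 and Rps3a1 kept the same order, so it is not particular to Ptgis. All were picked for their likeness to the contractile genes on the same arrays. That order thus follows from the choice and is no separate result.

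Genes that work with the contractile apparatus were then followed in 3 lists. Of 28 listed genes of contraction and cytoskeleton, 21 were on the array under a single name, and 15 were lower and 6 higher in overexpressors (median log2 fold change -0.13), against 9 lower and 12 higher in knockouts (0.03). Of all 8251 genes, 67.6% were lower in overexpressors and 39.1% in knockouts, which is the background for this and the following list counts. Csrp1, a LIM protein of smooth muscle, averaged 679.6 ± 119 in overexpressors and 1142 ± 436 in controls (-0.65, SE 0.27; SD, n = 3 each, as below). Smoothelin (Smtn), found in contractile smooth muscle, had log2 fold changes of -0.43 in overexpressors and -0.12 in knockouts, Cnn3 of -0.51 and 0.00, and Myl6, the essential light chain, of -0.30 and -0.05. In knockouts Pdlim7, Itga7 and Cnn2 had the smallest p values of the list, with log2 fold changes of 0.28, 0.15 and -0.19, and none passed the test.

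Transcription factors of smooth muscle lay on both sides of 0. Of 9 measured from 12 listed, 6 were lower in overexpressors (median -0.09) and 5 in knockouts (-0.06). Mrtfa, a myocardin-related coactivator of serum response factor, averaged 237 in overexpressors and 298 in controls (-0.29, SE 0.11), with no overlap, and Foxf1 (0.27), Prrx1 (0.36) and Fhl2 (0.07) were higher in every overexpressor than in any control. Groups separated in this way for 1 gene of the 9 with lower and 3 with higher values, against 6.48% and 2.29% of all tested probe sets. In knockouts Fhl2 was at -0.20, Mef2c at 0.23 and Fhl1 at 0.13. Receptors, channels and second messenger genes were represented by 8 of 16 listed, 8 lower in overexpressors (median -0.13) and 5 in knockouts (-0.08). Rgs2, which damps signalling of contractile receptors, averaged 97.4 in overexpressors and 174 in controls (-0.72, SE 0.30), with Ryr2 at -0.09 and Cacna1c at -0.06. In knockouts Cacna1c, a calcium channel subunit, was at -0.15 and Ryr2 at 0.18. Kcnmb1, a potassium channel subunit of smooth muscle, was too dim to test, at -0.30 in overexpressors and -0.39 in knockouts.

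**Figure D3:**
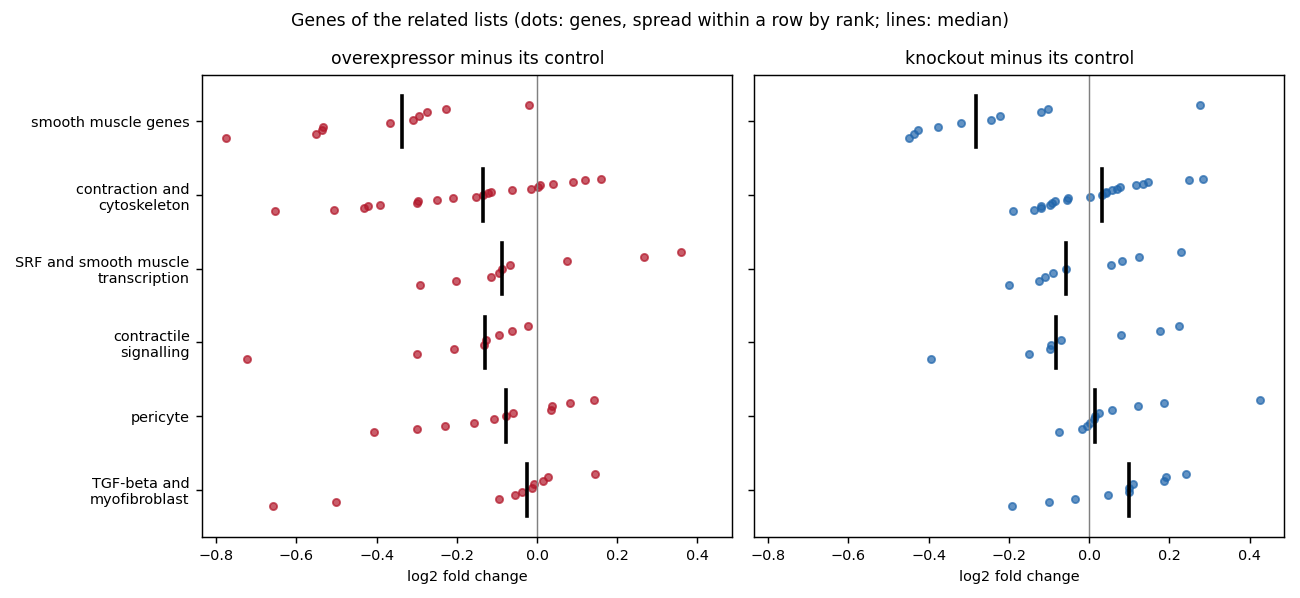
Log2 fold changes (horizontal axis) of the smooth muscle genes and of related lists in the overexpressor and in the knockout, each minus its own control; dots are genes, including those too dim to test, and black lines are medians. The smooth muscle genes have medians of -0.34 and -0.28, and the other lists lie between -0.13 and 0.10.

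Pericyte genes were read as a list of their own. Of 14 listed, 11 were on the array, 7 lower and 4 higher in overexpressors (median -0.08), and 3 lower and 8 higher in knockouts (0.02). Of these 11, 5 were too dim to test, against 1 of the 10 smooth muscle genes, and the added constant understates changes of dim genes. The list also holds the ligand genes Pdgfa and Pdgfb. Pdgfrb, the receptor through which pericytes are recruited, averaged 135 ± 26.0 in overexpressors and 193 ± 45.9 in controls (-0.41, SE 0.18), and 274 ± 60.5 in knockouts and 246 ± 26.0 in controls (0.12). Rgs5, a pericyte signalling regulator, averaged 217 ± 18.7 in knockouts and 156 ± 46.9 in controls (0.43, SE 0.19). Anpep (-0.23 and 0.02), Notch3 (-0.11 and 0.01) and Mcam (0.03 and 0.02) differed by less, in overexpressors and knockouts in turn. Cspg4 was not named by a probe set of its own. The difference between this list and the smooth muscle genes was not tested. Of 12 genes of TGF-beta and myofibroblasts, 10 were measured, 7 lower in overexpressors (median -0.03) and 3 in knockouts (0.10). Among them were Tgfbi (-0.50 in overexpressors), the matrix regulator Ccn2 (-0.66 in overexpressors), Smad2 (-0.09, 0.24), Tgfb1 (0.19 in knockouts) and Smad7 (0.19 in knockouts). In knockouts Ccn2 was at -0.19 with all arrays and at 0.26 without knockout control 2.

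Markers of other cell types had lower values in overexpressors as well, without a call. In overexpressors 11 of 12 fibroblast and matrix genes were lower (median -0.39), among them Dpt (-0.77), Postn (-0.66) and Col1a2 (-0.62), as were 10 of 10 endothelial genes (-0.24; Tie1 -0.37, Flt1 -0.22, Tek -0.29), 9 of 9 macrophage genes (-0.27; Csf1r -0.36, Mrc1 -0.52, Adgre1 -0.34) and 5 of 5 mesothelial genes (-0.24; Krt8 -0.24, Krt19 -0.40, Wt1 -0.23). These medians depended on single controls. Without overexpressor control 1 they were -0.25 (matrix, 11 of 12 lower), -0.10 (endothelial, 8 of 10), -0.04 (macrophage, 7 of 9) and -0.03 (mesothelial, 3 of 5). Without overexpressor control 3 they were -0.58, -0.32, -0.53 and -0.42 in the same order. In Dpt, Col6a1 and Tie1, as in Tgfbi and Pvalb, every overexpressor lay below every control. Of all tested probe sets 6.48% separated in that direction, and such separation was not counted over all lists. Of 8 adipocyte genes 4 were lower with all arrays (-0.01; Cidec -0.77, Retn 0.15). The adipocyte list includes the targeted gene, Slc2a4, which was its highest gene in overexpressors (0.22) and its lowest in knockouts (-0.43). The summed matrix signal was 26179.97 to 32078 in overexpressors against 30237 to 44766 in controls, where control 3 was the lowest. In knockouts lower values were found in 8 of 12 matrix genes (-0.09; Col1a2 -0.32, Col3a1 -0.13, Lum -0.19), 6 of 10 endothelial (-0.02; Kdr 0.16, Cldn5 -0.27, Tie1 0.12), 3 of 9 macrophage (0.06; Cd68 0.22, Csf1r 0.09, Msr1 0.06), 4 of 5 mesothelial (-0.13; Krt8 -0.18) and 2 of 8 adipocyte genes (0.08; Lep 0.50, Pparg 0.32).

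Muscle and reproductive tract genes were the remaining lists. Skeletal muscle genes were lower in 12 of 18 in overexpressors (-0.06; Pvalb -0.10, Tnnc2 -0.14) and in 3 of 18 in knockouts (0.24; Actn3 0.37, Tcap 0.27, Tnnc2 0.16). Without knockout 3, 13 of 18 were lower in knockouts (median -0.15), with Actn3 at 0.09, Tcap at -0.06 and Tnnc2 at -0.07. Myoglobin (Mb) had a log2 fold change of 0.88 (SE 0.65) in overexpressors, where 1 array of the overexpressors and 2 of the controls were at the floor and the groups overlapped. Cardiac genes were lower in 4 of 8 (-0.02; Actc1 -0.28, Nppa -0.14) and 5 of 8 (-0.04; Myl7 -0.29). The identifiers of Actc1, Tnnc2 and Cnn3 end in _f_at like that of Actg2, so other members of their gene families may be read by them. The cardiac troponin Tnni3 read 21.9, the floor, on all 6 arrays of the overexpressor line. Uterus and ovary genes were lower in 5 of 11 (0.01; Pgr 0.25, Amh -0.14) and in 9 of 11 (-0.07; Inha 0.30, Hoxa11 -0.27, Esr1 -0.17). Over the 13 lists outside the smooth muscle genes, 114 tested genes gave 0 calls by limma in either comparison. Without adjustment 15 were lower and 0 higher at p under 0.05 in overexpressors, where 3.53% of all tested probe sets were lower and 1.23% higher at that threshold. In knockouts 0 were lower and 2 higher, where 0.51% and 3.47% of all probe sets were. The part of other cells in the smooth muscle values was not tested.

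**Figure D4:**
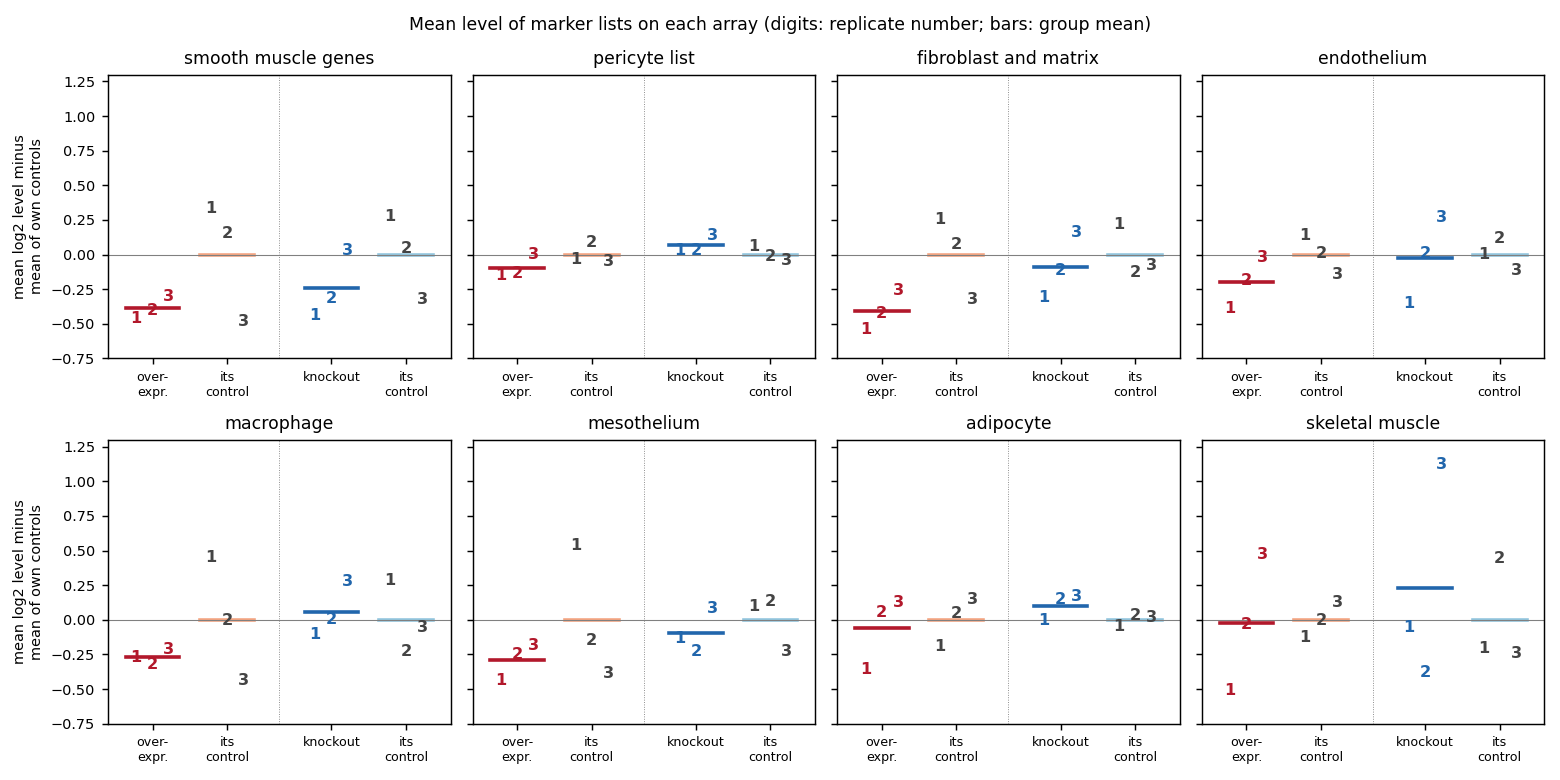
Mean log2 level of 8 gene lists on each array, minus the mean of the line's own controls (vertical axis), with digits for the replicate number and bars for group means. Overexpressor control 3 is the lowest control for the smooth muscle, pericyte, matrix, endothelial, macrophage and mesothelial lists, and knockout 3 is far above the others for skeletal muscle (1.12).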

How the data were processed

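RNA was measured on 12 Affymetrix arrays, 3 per group, 1 value per probe set. The deposited values are intensities on a linear scale; per the labels, hybridisation and analysis were done at a core facility by standard protocols, and the sources used here do not state how they were summarised, scaled or background-treated. No further normalization was applied (array medians spanned 0.20 on the log2 scale), and 36.92, the 10th percentile, was added to each intensity before log2. The 4968 probe sets (40%) with the lowest mean were left out. The linear model had 1 mean per group over the 12 arrays (limma 3.58.1, R 4.3.3; eBayes with an intensity trend, 8 residual degrees of freedom). The fit was tested on simulated data, with changes larger than those of the smooth muscle genes and noise drawn independently for each probe set. That test does not cover changes of their size or genes that vary together. Figures were drawn with matplotlib 3.10.9.

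Names came from the platform annotation, updated by gene ID from a GRCm38.p6 table (10817 of 10833 matched). The probe set with the highest mean stood for a gene. Named genes were the members, Slc2a4, up to 3 genes per list and comparison with the smallest p, other genes needed to show direction or a cell type (chosen after their values were seen), and the 5 most alike genes. The members and lists were chosen with earlier results of these data known. Replicates are separate mice, per the design text. Alternatives were the constant, the filter, normalization, the line's own arrays, the replicate number as a block, the trend, the probe set rule and leaving out each array. Precision is set by the 3 arrays per group, since arrays have no sequencing depth.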

Additional observations from a re-analysis of the deposited data

How the results depend on the processing

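Of the 9 tested smooth muscle genes, 0 were called in either comparison under every alternative run, except without overexpressor control 3, when 2 were called. That array was the lowest control for all of these genes. Counts of called probe sets over the whole array moved more. In overexpressors there were 6, against 11 with array medians subtracted, 11 with quantile normalization and 1 on the line's own 6 arrays, and 3 to 21 when single arrays were left out (3 without overexpressor control 2, 21 without overexpressor control 3). In knockouts there were 9, against 0 with the replicate number as a block (242 with an unadjusted p under 0.05) and 6 to 11 when single arrays were left out. For the difference of effects there were 12, against 1 without a filter, 1 with the replicate block and 1 to 13 when single arrays were left out (1 without overexpressor 3 or knockout 3, 4 without knockout 2, 5 without knockout control 2, 6 without knockout control 3). Same-numbered arrays did not deviate together (r -0.092 to 0.02 in the overexpressor line, -0.346 to -0.044 in the knockout line), and the main fit used no pairing. With 3 arrays per group, each centred on its own mean, these values cannot exclude one. The median over the smooth muscle genes kept its sign throughout, at -0.35 to -0.21 in overexpressors and -0.33 to -0.28 in knockouts under other settings, and at -0.63 to -0.20 and -0.41 to -0.16 when single arrays were left out. Signs turned for Tpm2 in overexpressors with array medians subtracted (0.0371), quantile normalization (0.0237) and the mean of its probe sets (0.0375), and between -0.16 and 0.071 when single arrays were left out. In knockouts they turned for Tpm2 (-0.32 to 0.59), Acta2 (-0.33 to 0.0948) and Mylk (-0.35 to 0.0295) when single arrays were left out. Leaving out single arrays was applied to the other lists after the data were seen. It turned the sign of the median in at least 1 case for 6 of 13 lists in overexpressors and 8 of 13 in knockouts, among them the skeletal muscle list in knockouts (-0.146 without knockout 3, up to 0.598 without knockout 2), and in knockouts it turned Ccn2 (-0.445 without knockout control 1, 0.259 without knockout control 2). The cause was not tested.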
